A study of Mus musculus with 12 samples.

Results

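The comparison described here set mouse breast tumour cells kept for 7 days in normoxic standard conditions against the same cells kept in hypoxic stem cell conditions, across every gene detected on the arrays. Its members were the 3 arrays labelled day 7 and the 3 arrays labelled hypoxic, 6 of the 12 arrays of the series, and 10365 genes were tested. The cells are immortalized tumor-initiating cells, a line of mammary tumour cells with tumour-seeding capacity. For the day 7 group they were moved to a DMEM-based medium under 21% oxygen and left there for 7 days. The hypoxic group stayed in serum-free mammary stem cell medium on an MEBM base, with 2% Cultrex, a basement membrane extract, under 3% oxygen. Both groups had 5% CO2 at 37 degrees, were grown to 80% confluency and carried no other treatment that the labels name. Oxygen and medium changed together, so their effects cannot be told apart. Whether replicates came from separate cultures is not stated in the labels, and the p-values here rest on differences among these arrays that may be technical alone.

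Cells sense low oxygen through hypoxia-inducible factors, which raise genes of glucose uptake, acid handling and collagen hydroxylation and are degraded when oxygen is plentiful. Stem cell media of this kind hold mammary cells in an undifferentiated state with growth factors and matrix components and without serum, whereas standard media such as DMEM are made for fast growth. Histones, mitochondrial ribosomes and splicing proteins serve growth and division, and chaperones of the endoplasmic reticulum fold secreted proteins, including matrix and cytokines.

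Signal was read in 1 colour on Illumina Mouse WG-6 v2.0 bead arrays, where each gene is measured by 1 or more oligonucleotide probes. Probes above background made up 34.3% to 35.9% of all probes on day 7 arrays and 36.8% to 37.6% on hypoxic arrays. After centring each gene over all arrays of the series, day 7 arrays correlated with each other at 0.589 to 0.705 across genes. Hypoxic arrays did so at 0.890 to 0.904. Most arrays of the series are normoxic, so the centre lies nearer to the day 7 arrays. These ranges therefore cannot be compared as measures of how well replicates match. The median SD of a gene was 0.189 on day 7 and 0.169 in hypoxic cells on the log2 scale. Sample names follow the signal table. Of the 6 signal columns in the authors' processed table, 1 held the array of its own label in the signal table, and which table names the arrays rightly could not be settled, so every direction given here rests on the names in the signal table. Detection p-values matched to each signal lie in the first or the last 6 such columns of the file, which gives inferred sets of arrays, set a with 2 day 7 arrays and 1 hypoxic array, and set b with 1 day 7 array and 2 hypoxic arrays. All 11 measured epithelial markers were detected on all arrays of both groups, 1 of them higher and 6 lower on day 7, and their summed level was 15.47 to 15.53 on day 7 arrays and 15.99 to 16.05 on hypoxic arrays (log2). Of 10 fibroblast markers 6 were measured, 5 of them higher on day 7, and their summed level was 11.01 to 11.18 on day 7 arrays and 8.68 to 9.01 on hypoxic arrays (log2). Detection on all 3 arrays held for 5 of these on day 7 and for 2 in hypoxic cells. Of 14 myeloid markers 12 had a named probe, but only 3 passed the detection filter (Lyz1, Mpeg1 and Cd14), 1 of them higher and 1 detected on all arrays. Their summed level was 10.67 to 11.09 on day 7 arrays and 8.999 to 9.35 on hypoxic arrays. Among lymphocyte markers 1 of 11 was measured and detected in full in neither group. The part of other cell types in the results was not tested, and in bulk RNA fewer cells of a type and less RNA per cell cannot be told apart.

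Most detected genes (59.7%) differed between the 2 states. Levels are normalized log2 signals, differences are day 7 minus hypoxic on that scale with their SE, and a gene is called at a limma adjusted p below 0.05. Adjusted p-values of the called genes given with a difference and SE ran from 4.20e-06 (Tenm4) to 0.0115 (H3f3b), apart from the comparisons of probes. Of 10365 genes, 2688 were higher on day 7 (25.9%) and 3496 were lower (33.7%). By at least 2-fold, 1423 were higher (13.7%) and 1661 lower (16.0%). Values of the 2 groups did not overlap for 2963 genes that were higher on day 7 (28.6%) and for 3883 that were lower (37.5%), and 71 of the called genes had overlapping values. The split depended on the scaling, since higher genes made up 43.5% of the 6184 called genes, but 32.7% after each array was shifted to the same median of all probes (the common-median scale) and 57.7% where the shift used only probes detected everywhere (the scale of probes detected on all arrays). The median over all genes was -0.11, and -0.19 and 0.13 on those 2 scales. Of the 10365 genes, 2107 were higher and 4340 lower on the common-median scale. On the scale of probes detected on all arrays 3919 were higher and 2875 lower. Family counts given below on either scale are to be read beside these counts, since the whole moved too. Within set a 2626 genes were called and within set b 4533, with 2580 and 4212 of them also called in the full comparison in the same direction.

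Changes of 8-fold or more were rises more often than falls. At 8-fold or more, 109 genes were higher and 55 lower, and at 16-fold or more 38 were higher and 8 lower. These counts were made on the main scaling only. At the 2-fold mark falls outnumbered rises, as given above, and more so on the common-median scale, with 717 higher and 1411 lower. The order turned with other processing. It was 1204 higher and 704 lower on the scale of probes detected on all arrays, and 954 higher and 919 lower with quantile normalization and no background correction. Among genes detected on all 6 arrays 16 rose and 4 fell by at least 16-fold. The middle 90% of all genes lay between -1.62 and 1.78. At the other end, 1454 genes had a 95% interval within 1.5-fold of no change, whereas 2735 genes were not called but had an interval that reached beyond 1.5-fold, so no change and an unresolved change are distinct groups here. The 6 narrowest of the steady genes were Katna1, the catalytic subunit of the microtubule-severing katanin, Ddost of the oligosaccharyl transferase, the glucosyltransferase Poglut2, the ribosomal protein Rps29, Klhdc2 and the NAD kinase Nadk. Ddost had levels of 10.88, 10.87 and 10.85 on day 7 and 10.84, 10.84 and 10.87 in hypoxic cells, a difference of 0.02 ± 0.11. Such small differences changed sign with the scaling for each of these 6 genes.

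The 12 largest rises included acute-phase proteins, a chemokine and S100 proteins. Both these and the 12 largest falls below were taken among called genes detected on all 6 arrays whose groups did not overlap. Saa3, an acute-phase serum amyloid, read 13.33, 13.62 and 12.77 on the day 7 arrays and 6.97, 6.57 and 7.35 on the hypoxic arrays. Every day 7 array was far above every hypoxic array, and the difference was 6.28 ± 0.27 (adjusted p = 1.25e-05). Haptoglobin, Hp, which binds free haemoglobin, had 10.91, 10.81 and 10.74 on day 7 and 5.67, 6.37 and 5.44 in hypoxic cells (4.99 ± 0.24). The chemokine Ccl2, which attracts monocytes, stood at 10.86, 11.13 and 10.86 on day 7 against 5.61, 6.15 and 5.85 (5.08 ± 0.17). S100a8, a subunit of calprotectin, rose by 4.79 ± 0.22 and S100a4, linked to cell motility, by 4.55 ± 0.31. Spread within a group stayed small beside these gaps, the widest being that of S100a4 in hypoxic cells, with 7.02, 7.43 and 8.22.

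Matrix regulators, hormones and a steroid enzyme completed the 12 largest rises. Has2, the main hyaluronan synthase, measured 10.27, 10.37 and 11.05 on day 7 and 5.90, 5.42 and 5.75 in hypoxic cells (4.87 ± 0.24), and Timp1, an inhibitor of matrix metalloproteases, measured 13.63, 13.34 and 13.74 and 8.96, 9.41 and 9.38 in the same order (4.32 ± 0.18). Akr1c18, which inactivates progesterone, rose by 5.34 ± 0.22. Erfe, the hormone erythroferrone that lowers hepcidin in the liver, rose by 4.35 ± 0.25. Prl2c3, Prl2c4 and Prl2c2, proliferins of the prolactin family, rose by 5.46, 5.33 and 5.27, but their sequences are nearly identical, so that one transcript may light all 3 probes.

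**Figure D1:**
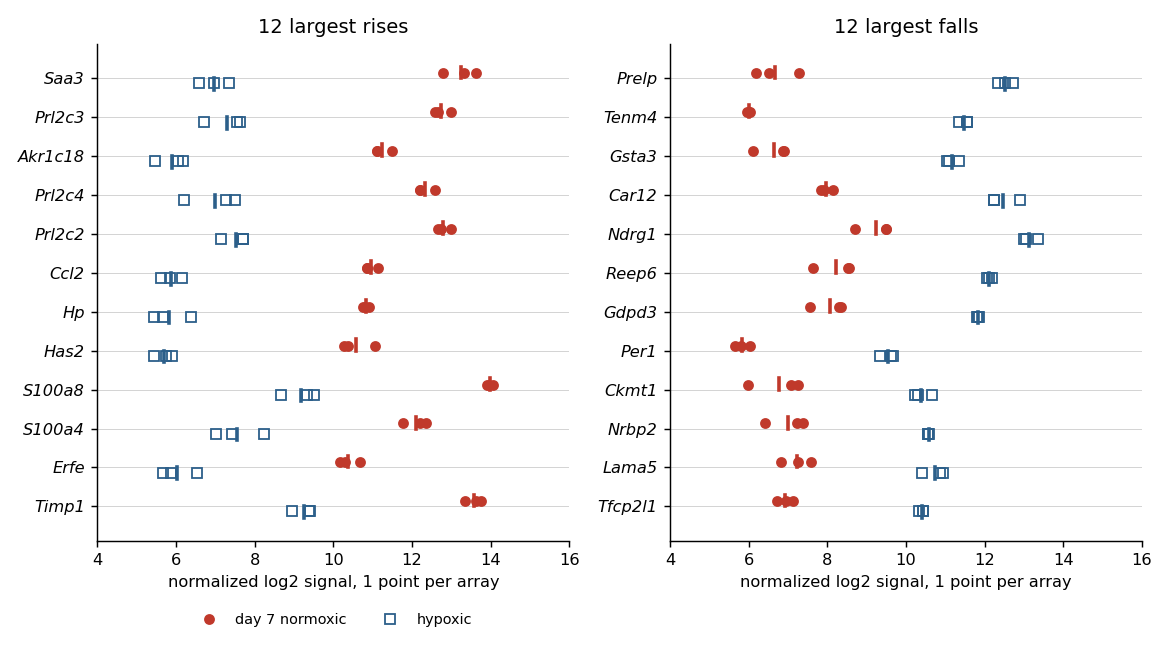
Normalized log2 signal (horizontal axis) of the 12 genes with the largest rises (left) and falls (right) among genes detected on all 6 arrays, 1 point per array, with day 7 as filled circles above hypoxic as open squares and short bars for the means of 3. All 24 genes were chosen among those whose 2 groups do not overlap, so their separation follows from the choice. Saa3 (6.28) and Prelp (-5.86) differ the most.

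The 12 largest falls included matrix proteins, enzymes and transcriptional regulators. Prelp, a leucine-rich proteoglycan that anchors basement membrane, read 7.27, 6.53 and 6.18 on day 7 and 12.33, 12.51 and 12.73 in hypoxic cells, and fell by 5.86 ± 0.28. Car12, a carbonic anhydrase of the cell surface that handles acid, read 8.15, 7.82 and 7.92 and 12.90, 12.23 and 12.23 in the same order (-4.49 ± 0.21). Ndrg1, a stress gene responsive to low oxygen, stood at 9.49, 9.49 and 8.70 on day 7 and 13.06, 13.001 and 13.35 in hypoxic cells (-3.91 ± 0.24). Lama5, the laminin alpha chain of mature basement membranes, fell by 3.51 ± 0.23. Tfcp2l1, a transcription factor of pluripotent and epithelial cells, had 6.94, 6.72 and 7.12 on day 7 and 10.44, 10.44 and 10.33 in hypoxic cells (-3.48 ± 0.14). That each of these 5 genes was lower on all day 7 arrays than on any hypoxic array follows from the choice of genes without overlap.

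Enzymes made up much of the remaining list of falls. Ckmt1, the mitochondrial creatine kinase, fell by 3.62 ± 0.33, with day 7 levels of 7.08, 7.25 and 5.99 that were spread more widely than the hypoxic levels of 10.65, 10.29 and 10.23. The phosphodiesterase Gdpd3 fell by 3.76 ± 0.22 and the pseudokinase Nrbp2 by 3.57 ± 0.25. Probes of the same gene disagreed for 3 of the 12. For the teneurin Tenm4 the probe used gave -5.48 ± 0.12 and another gave -0.35 (adjusted p = 0.237). For the glutathione transferase Gsta3 the values were -4.53 ± 0.23 and -0.59 (adjusted p = 0.0982). For Reep6, which shapes the endoplasmic reticulum, they were -3.89 ± 0.25 and 0.43 (adjusted p = 0.169).

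Some genes were above background in one state only. On all 3 day 7 arrays and on no hypoxic array, 179 called genes were detected (1.73%), and the reverse held for 297 (2.87%). Folds of such genes are lower bounds, set against the dimmest detectable signal. Cthrc1, a secreted collagen triple helix protein, was at least 37.8-fold higher on day 7, with 10.66, 10.84 and 10.32 on day 7 and background readings of 4.71, 4.78 and 4.78 in hypoxic cells. Interleukin 6 (Il6) was at least 22-fold higher, the ubiquitin hydrolase Uchl1 at least 15-fold, macrophage elastase Mmp12 at least 11.7-fold and the retinaldehyde dehydrogenase Aldh1a3 at least 12.1-fold. Aunip, a partner of Aurora kinase A in mitosis, was at least 10.8-fold higher. Inmt, which methylates indoles, rested on uneven arrays, with 9.57, 9.90 and 7.08 on day 7 against 4.81, 4.70 and 4.53 in hypoxic cells, so its bound of 11.2-fold has a wide error (SE 0.68). Stfa1, Lce1g and Prl2a1, at least 28.4-, 14.8- and 13.1-fold higher, belong to families of near-identical paralogs.

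Genes detected in hypoxic cells alone included receptors' partners, collagens of basement membrane and secretory machinery. Irs2, which carries the insulin signal inside the cell, was at least 7.7-fold lower on day 7, with background readings of 5.05, 5.35 and 4.97 on day 7 and 8.74, 8.14 and 8.56 in hypoxic cells. Col4a3 and Col4a4, collagen IV chains that assemble together, were at least 6.51-fold and 5.9-fold lower, which put both chains among the 10 largest losses of this kind. Ero1b, an oxidase that drives disulfide bonding, was at least 7.59-fold lower and the chaperone Hyou1 at least 4.3-fold. Eef2k, the kinase that slows translation elongation, was at least 6.31-fold lower, and Unc13d, a priming factor of secretory granules, at least 6.36-fold. The teneurin Tenm2 and the peroxisomal carrier Slc25a17 were at least 5.12-fold and 4.72-fold lower, and Sval2 at least 6.36-fold.

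The shift was largely in place after the first day. Days 1 to 6 had 1 array each and were not tested. Genes called at least 2-fold higher on day 7 had median levels of 7.27, 7.35 and 7.39 on the hypoxic arrays, 8.71 on day 1, 9.01 on day 4, 9.15 on day 6, and 9.17, 9.25 and 9.26 on day 7. For genes at least 2-fold lower, the medians were 9.07, 8.93 and 8.99 in hypoxic cells, 7.93 on day 1, 7.54 on day 4, 7.43 on day 6, and 7.504, 7.415 and 7.375 on day 7. The first array after transfer thus lay nearer to day 7 than to the hypoxic arrays in both directions. On day 1, 53.1% of the higher genes lay between the hypoxic and the day 7 ranges, 10.1% within the day 7 range and 19.1% past it, while 10.6% were still within the hypoxic range and 7.13% on its far side. By day 6, 1.34% of the higher genes and 0.966% of the lower genes were within the hypoxic range. The share past the day 7 range was 15.7% to 26.3% on days 1 to 6 among higher genes, and among lower genes it was lowest on day 5 (8.27%).

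Single genes took different courses. Saa3 climbed on each of the first 5 days, from 8.70 on day 1 through 10.12 on day 3 to 12.44 on day 5. Aldh1a3 instead peaked at 12.71 on day 1 and stood at 8.80, 8.55 and 9.54 on day 7. Proliferin Prl2c3 was also above its day 7 level on days 1 to 3, with 13.91, 13.87 and 14.03. Among falling genes, Prelp was at 6.70 on day 1 and Car12 at 9.17, both far below every hypoxic array. Ckmt1 was late by comparison, at 10.33 on day 1, within its hypoxic range, 8.97 on day 2 and 6.99 on day 4.

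**Figure D2:**
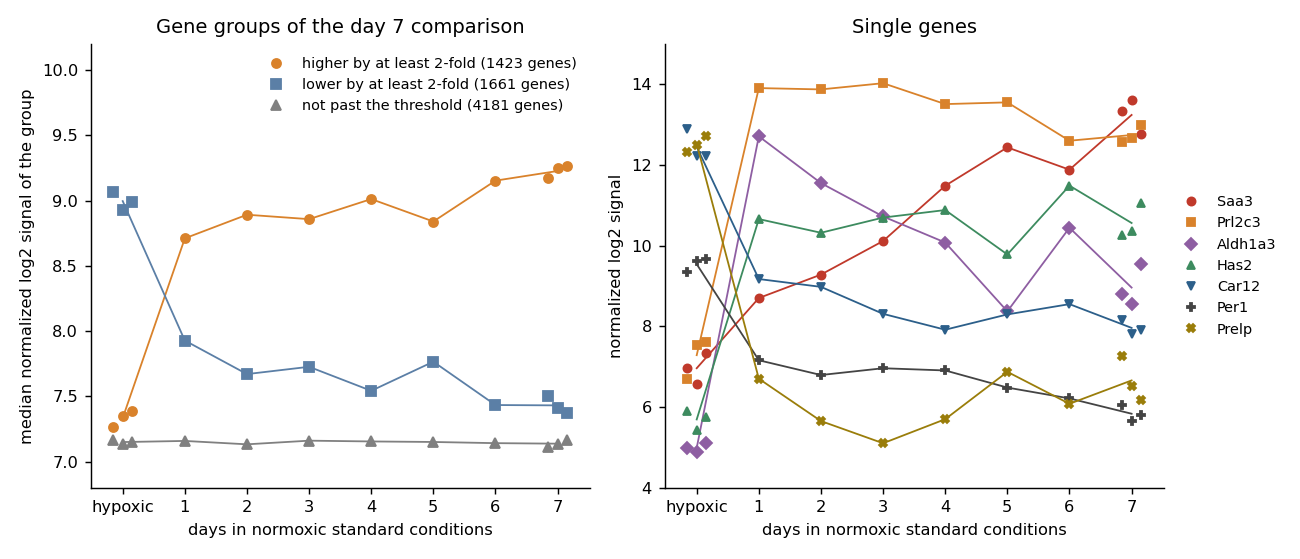
Median normalized log2 signal of the genes called at least 2-fold higher, at least 2-fold lower or not called on day 7 (left) and the signal of 7 single genes (right), by days in normoxic standard conditions, with 1 point per array and lines through the group means. Medians of the higher genes are at 8.71 on day 1 and those of the lower genes at 7.93, and Aldh1a3 peaks at 12.71 on day 1.

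Genes of chromatin packing rose almost as a block. Of 56 measured core and linker histone genes, 48 were higher and 1 lower on day 7, with a median of 1.66, against 25.9% and 33.7% of all genes and their median of -0.11. H2ac21 read 11.12, 11.20 and 11.32 on day 7 and 6.79, 7.57 and 7.47 in hypoxic cells (3.94 ± 0.21), and H2ac11 rose by 3.73 ± 0.21. All day 7 values of H2ac21 lay above the hypoxic ones. The lone fall was that of H3f3b (-0.45 ± 0.12), a replication-independent variant of histone H3, whose call ended in 1 alternative. Many histone genes are near-identical copies, so that the 48 probes may not read 48 separate transcripts. Along the chromosomes, 6 runs of 4 to 6 neighbouring measured genes that all rose by at least 2-fold were histone genes.

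Enzymes that write and erase histone methylation went the other way. Of 44 measured, 30 were lower and 5 higher (median -0.86). Setd1b, a methyltransferase of histone H3 lysine 4, read 8.16, 7.72 and 7.95 on day 7 and 10.59, 10.10 and 10.48 in hypoxic cells (-2.45 ± 0.18). The demethylases Kdm4b and Kdm7a changed by -2.38 ± 0.16 and -2.28 ± 0.16, and Kmt2c by -1.98 ± 0.15. Kdm4b is itself a known target of hypoxia-inducible factors. Among the exceptions, the methyltransferase Ezh2 rose most (1.07), with another probe at 0.55 that was not called (adjusted p = 0.324). The arginine methyltransferases Prmt1 and Prmt7 rose by 0.61 and 0.66. Histone deacetylases and sirtuins had 10 of 16 lower and 0 higher (median -0.82), with Hdac4 at -1.49 ± 0.15 and Sirt5, a mitochondrial desuccinylase, at -1.25 ± 0.16. On the scale of probes detected on all arrays 2 of these 16 were higher and 8 lower.

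Mitochondrial translation and protein import were higher on day 7. Among 72 mitochondrial ribosomal proteins, 50 were higher and 3 lower (median 0.74). Mrps25, of the small subunit, read 9.69, 9.63 and 9.89 on day 7 and 6.90, 7.00 and 7.55 in hypoxic cells (2.59 ± 0.19), and Mrps22, Mrpl18 and Mrpl20 rose by 2.06, 2.03 and 2.03. Mrpl23 moved against the others (-0.97 ± 0.11). Import proteins had 16 of 24 higher and 1 lower (median 0.93), led by Tomm22, the central receptor of the outer membrane (1.52 ± 0.20), with Timm17a of the inner membrane channel at 1.30 ± 0.12 and the small chaperone Timm8b at 1.28 ± 0.12. These directions were the same on every scaling tried.

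Of 57 measured cytosolic ribosomal proteins, 3 were higher and 11 lower, and 43 were not called, although their median of -0.06 turned to 0.18, with 11 higher and 4 lower, on the scale of probes detected on all arrays. Of the 14 called, 5 changed by at least 2-fold: Rpl22, Rpl22l1, Rpl7l1 (1.05 ± 0.12), Rpl29 (-1.24 ± 0.14) and Rpl4 (-1.05 ± 0.11). Rpl29 and Rpl4 each had another probe that was not called (adjusted p = 0.342 and 0.328). Rpl22 read 10.58, 10.27 and 10.37 on day 7 and 12.85, 12.91 and 12.74 in hypoxic cells (-2.43 ± 0.13, adjusted p = 1.76e-05). Rpl22l1, its paralog, read 10.35, 10.77 and 10.56 and 9.44, 8.80 and 9.72 in the same order (1.24 ± 0.25, adjusted p = 0.00379). The groups did not overlap in either gene, in opposite directions. In mice Rpl22 is known to repress Rpl22l1.

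**Figure D3:**
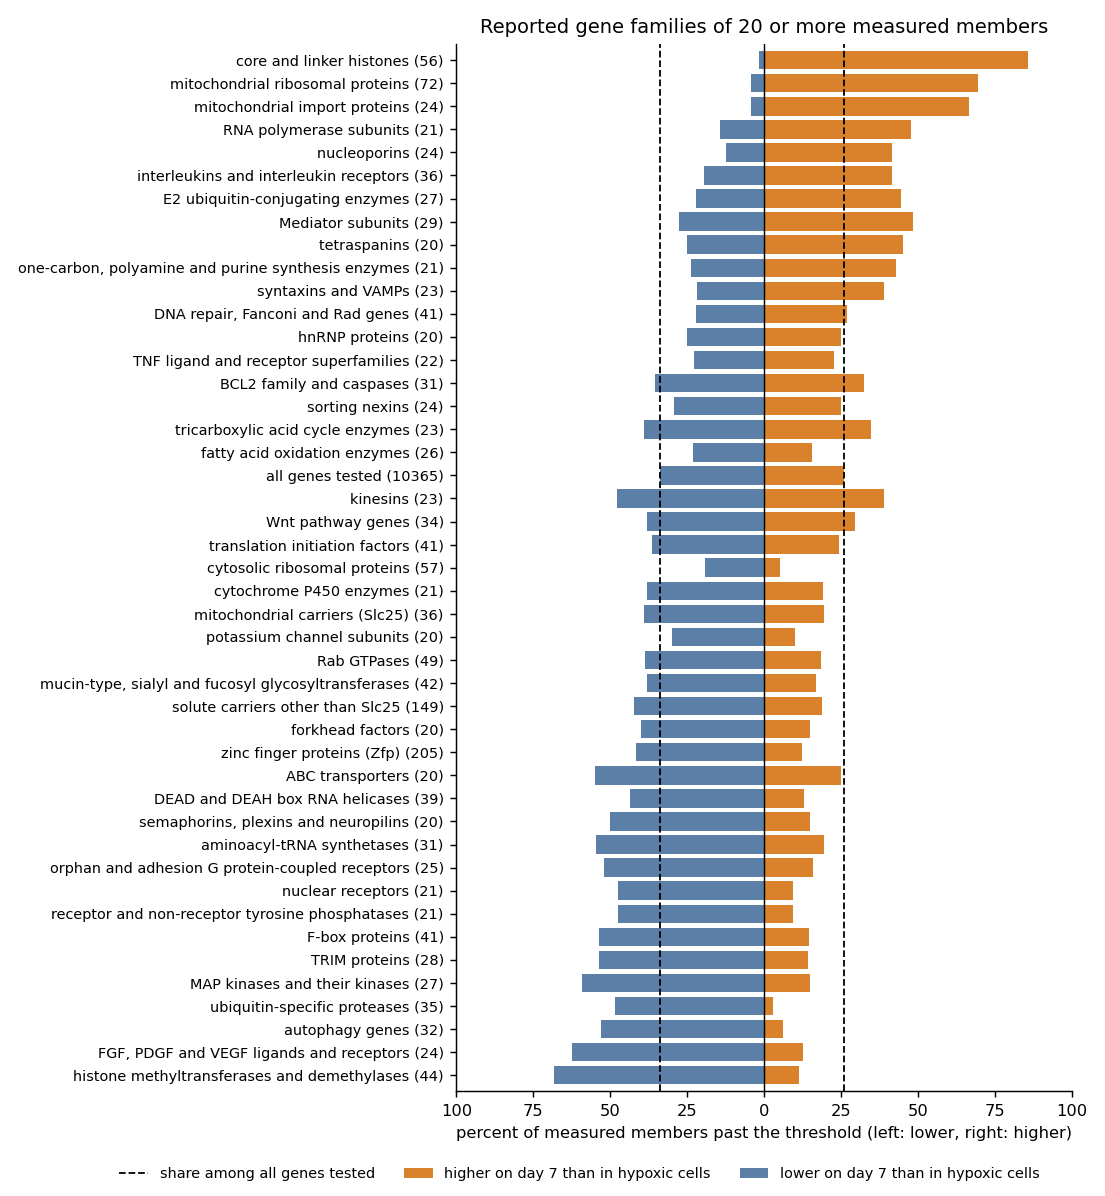
Percent of measured members called higher (right, orange) or lower (left, blue) on day 7, for the families reported here that had 20 or more measured members (number in brackets), with dashed lines at the shares among all genes, 25.9% higher and 33.7% lower. Histones stand at the top with 48 of 56 higher, and enzymes of histone methylation at the bottom with 30 of 44 lower.

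Families of RNA processing differed from one another. The Sm and LSm proteins, which form rings on spliceosomal RNAs, had 14 of 18 higher and 2 lower (median 1.01). Lsm3 read 11.78, 11.75 and 12.04 on day 7 and 8.99, 9.13 and 8.79 in hypoxic cells (2.88 ± 0.15), Lsm5 rose by 2.32 ± 0.12 and Snrpd1 by 1.79 ± 0.14. The 2 that fell, Lsm14a (-1.30) and Lsm14b (-1.18), are not ring proteins of the spliceosome but act in processing bodies of the cytoplasm. Among 39 RNA helicases of the DEAD and DEAH box families 17 were lower and 5 higher (median -0.31), and among SR splicing factors 4 of 9 were higher and 1 lower, with Srsf3 at 1.89 ± 0.21 and Srsf4 at -1.02 ± 0.15. Heterogeneous nuclear ribonucleoproteins had 5 higher and 5 lower of 20, or 11 and 2 on the scale of probes detected on all arrays. Hnrnpr was at least 2.41-fold lower and Hnrnpa2b1 rose by 1.05 ± 0.15. Of 10 exosome subunits, which degrade RNA, 4 were higher and 0 lower, among them Exosc8 (1.64 ± 0.11).

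Transcription and nuclear transport machinery moved in part. Of 21 RNA polymerase subunits 10 were higher and 3 lower, Polr2d most (1.85 ± 0.14). Mediator, which links activators to RNA polymerase II, had 14 of 29 higher and 8 lower, or 11 higher and 12 lower on the common-median scale. Its risers Med31 (1.99), Med21 (1.73) and Ccnc (1.79), the cyclin of the kinase module, stood against Med15 (-1.41) and Med12 (-0.79). Nucleoporins had 10 of 24 higher and 3 lower (7 and 7 on the common-median scale), with Nup37 at 2.11 ± 0.16 and Nup43 at 1.93 ± 0.12, both of the scaffold Y complex, against the membrane nucleoporin Nup210 at -1.99 ± 0.14. Among transport receptors Kpna2 rose by 2.21 ± 0.22 and Ipo13 was at -2.05 ± 0.16.

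Translation factors and tRNA-charging enzymes had members that rose and members that fell. Initiation factors had 10 of 41 higher and 15 lower, a balance that turned to 17 higher and 13 lower on the scale of probes detected on all arrays. Eif4e, which binds the mRNA cap, rose by 1.13 ± 0.17, and its inhibitor Eif4ebp2 was at -1.51 ± 0.20. Of 31 aminoacyl-tRNA synthetases 17 were lower and 6 higher (median -0.40). The cytosolic Eprs read 8.60, 8.01 and 7.96 on day 7 and 9.39, 9.66 and 9.92 in hypoxic cells (-1.47 ± 0.22), with 1 day 7 array above the other 2 but no overlap, and Cars was at least 2.92-fold lower. Mitochondrial Mars2 and Rars2 rose by 1.44 ± 0.12 and 0.96 ± 0.13, whereas mitochondrial Wars2 was at -1.37 ± 0.15.

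Genes of the microtubule cytoskeleton changed in both directions. Tubulins and their partners had 10 of 15 higher and 1 lower (median 1.08), among them Tuba1a with 12.93, 12.999 and 13.18 on day 7 and 9.85, 10.39 and 10.51 in hypoxic cells (2.79 ± 0.19) and Tubb6 at 2.02 ± 0.13. Kinesins had 9 of 23 higher and 11 lower (11 and 8 on the scale of probes detected on all arrays). The risers were motors of the mitotic spindle and chromosomes, such as Kif2c (2.65), Kif22 (2.41), Kif15 (2.29) and Kif18a (2.23). The falls included transport motors, Kif13b (-1.76, detected on 1 of 3 day 7 arrays) and Kif3a (-1.24), a motor of the cilium.

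Membrane traffic had few coherent moves but some large single changes. Rab GTPases had 9 of 49 higher and 19 lower (14 and 15 on the scale of probes detected on all arrays). Rab3d, of secretory granules, read 8.57, 8.45 and 8.16 on day 7 and 11.51, 11.49 and 11.31 in hypoxic cells (-3.04 ± 0.15), and Rab32, of lysosome-related organelles, rose by 1.33 ± 0.12. Snx7 rose by 2.51 ± 0.18, Vamp7 by 1.498 ± 0.16 and Sar1b, the small GTPase of COPII coats, by 1.57 ± 0.16, while Vamp2 was at -1.27 ± 0.17. In the vacuolar ATPase, which acidifies organelles, 1 subunit stood apart from the other 17. Atp6v1c2, the tissue-restricted C subunit, read 9.51, 9.71 and 9.50 on day 7 and 5.47, 6.09 and 5.89 in hypoxic cells (3.75 ± 0.18), whereas its common counterpart Atp6v1c1 rose by 0.73 ± 0.13.

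Autophagy genes were lower, 17 of 32 with 2 higher (median -0.54). The initiating kinases led. Ulk2 read 6.71, 6.82 and 7.27 on day 7 and 9.30, 8.90 and 9.01 in hypoxic cells (-2.14 ± 0.19), and Ulk1 read 7.501, 7.16 and 7.33 and 9.22, 9.27 and 9.23 in the same order (-1.91 ± 0.13). Neither gene had overlapping groups. The 2 risers, the LC3-family members Gabarapl2 (1.34) and Map1lc3a (0.82), each had another probe that was not called (0.26 and 0.34).

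Among E2 conjugating enzymes 12 of 27 were higher and 6 lower, a balance of 8 and 11 on the common-median scale. Ube2t, of the Fanconi pathway, rose by 3.19 ± 0.36, and Ube2c and Ube2s, partners of the anaphase-promoting complex, by 1.66 and 1.65. Ube2h was at -1.83 ± 0.18. F-box proteins, which choose substrates, had 22 of 41 lower and 6 higher (median -0.55), with the muscle atrophy gene Fbxo32 at -1.74 ± 0.16, and TRIM proteins 15 of 28 lower and 4 higher, with the basal epithelial Trim29 at -3.17 ± 0.28. Ubiquitin-specific proteases had 17 of 35 lower and 1 higher (median -0.42). That one was Usp14, which sits on the proteasome (8.87, 9.16 and 9.26 on day 7 and 7.82, 7.81 and 8.21 in hypoxic cells, 1.15 ± 0.17).

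Transporters and metabolic enzymes shifted gene by gene. Solute carriers outside the mitochondrial family had 28 of 149 higher and 63 lower. On the scale of probes detected on all arrays 51 were higher and 53 lower, against 3919 and 2875 of all 10365 genes. The glucose transporter family split, with Slc2a6 at 9.43, 9.22 and 9.13 on day 7 and 6.01, 6.08 and 6.28 in hypoxic cells (3.14 ± 0.14) and Slc2a1, the GLUT1 gene, at 10.99, 10.92 and 10.94 and 13.29, 13.15 and 13.27 in the same order (-2.28 ± 0.11). Groups were apart in both. Slc15a3, a lysosomal peptide transporter, was at least 4.25-fold higher, and Abcc3, an exporter of organic anions, at least 3.82-fold. Slc46a3, of lysosomes, was at -3.12 ± 0.15, the glycine transporter Slc6a9 at -3.05 ± 0.31 and Slc22a23 at -2.70 ± 0.14. Slc15a2, at 3.06 on the probe used, had another probe at -0.61 (adjusted p = 0.0647).

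Carbonic anhydrases, which set pH, changed in both directions. Car9, the acid-handling isoform known as a hypoxia marker, read 7.40, 7.49 and 7.62 on day 7 and 9.98, 9.62 and 10.32 in hypoxic cells (-2.47 ± 0.19). Car12 fell too, as given above. Cytosolic Car13 read 11.73, 11.69 and 11.79 and 10.38, 10.203 and 10.19 in the same order (1.48 ± 0.12), and Car2 rose by 1.44 ± 0.17, detected on 1 of 3 hypoxic arrays. The 2 membrane isoforms thus fell while 2 cytosolic isoforms rose, with 3 of 7 measured not called.

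Enzymes of central carbon and of fuel oxidation divided as well. Of 23 enzymes listed for the tricarboxylic acid cycle and linked reactions, 8 were higher and 9 lower (11 and 5 on the scale of probes detected on all arrays). The 4 genes named next belong to the linked reactions and not to the cycle itself. Me2, mitochondrial malic enzyme, rose by 2.00 ± 0.19 and Idh1 by 1.12 ± 0.16, while Pdha1 of pyruvate dehydrogenase was at -0.84 ± 0.11 and pyruvate carboxylase, Pcx, was at least 2.14-fold lower. In nucleotide, polyamine and one-carbon synthesis 9 of 21 enzymes were higher and 5 lower (6 and 7 on the common-median scale). Mthfs rose by 2.17 ± 0.23 and the first purine enzyme Ppat by 1.37 ± 0.17. The pyrimidine enzymes did not move together. Cad and Ctps were at -1.34 ± 0.18 and -1.02 ± 0.15, and Umps was at 1.485, with another probe at 0.587 that was not called (adjusted p = 0.342). Peroxins had 5 of 13 higher and 3 lower (4 and 5 on the common-median scale), and Pex6 fell most (-2.19 ± 0.14). Cytochrome P450 enzymes had 8 of 21 lower (38.1%, against 33.7% of all genes) and 4 higher, or 6 lower and 7 higher on the scale of probes detected on all arrays, with Cyp2f2 at -3.17 ± 0.27 (detected on 1 of 3 day 7 arrays) and Cyp2d22 at -2.07 ± 0.15.

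Collagen-modifying enzymes included both rises and falls. Lox, lysyl oxidase, read 11.98, 11.84 and 12.09 on day 7 and 9.60, 9.93 and 10.12 in hypoxic cells (2.09 ± 0.17), and Loxl1 and the procollagen protease enhancer Pcolce rose by 1.89 ± 0.16 and 1.81 ± 0.23. The prolyl 4-hydroxylase subunits P4ha1 and P4ha2, known targets of hypoxia-inducible factors, were at -1.30 ± 0.15 and -2.17 ± 0.17. The crosslinker Loxl4 was at -0.84 ± 0.16. Of all 18 measured, 5 were higher and 7 lower (7 and 6 on the scale of probes detected on all arrays). The summed level of fibroblast markers given above was also higher on day 7, and its part in these values was not tested.

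Several growth factor receptors were lower on day 7. In the insulin-like growth factor axis, the binding protein Igfbp3 read 10.17, 10.12 and 9.96 on day 7 and 6.69, 6.07 and 6.33 in hypoxic cells (3.72 ± 0.18), while the insulin receptor Insr read 7.77, 7.71 and 7.30 and 10.70, 10.48 and 10.59 in the same order (-2.99 ± 0.16). The clearance receptor Igf2r was at -1.39 ± 0.11. Of the 13 measured genes of this axis 6 were higher and 4 lower. Irs2, given above, was lower like Insr and Igf2r, and the binding protein Igfbp2 (1.68 ± 0.15) rose like Igfbp3. For Igf1r (-2.23 ± 0.17) another probe read 0.04 (adjusted p = 0.921). Among FGF, PDGF and VEGF ligands and receptors 15 of 24 were lower and 3 higher (median -0.59), with Fgfr2 at -2.27 ± 0.14 and Vegfb at -1.91 ± 0.13. Ephrins and their receptors had 7 of 16 lower and 0 higher. Epha1 fell most (-2.06), but another of its probes read -0.15 (adjusted p = 0.447), and Efna5 was at -2.02 ± 0.14.

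Interleukin genes were higher more often than lower, and MAP kinase genes lower more often than higher. Interleukins and their receptors had 15 of 36 higher and 7 lower (median 0.40). Il33, an alarmin, read 10.00, 9.70 and 10.23 on day 7 and 5.22, 5.03 and 5.58 in hypoxic cells (4.70 ± 0.20), and Il1a read 9.73, 9.73 and 9.58 and 5.24, 5.68 and 5.43 in the same order (4.23 ± 0.15). Both had day 7 arrays well above the hypoxic ones, where Il33 was detected on 1 of 3 arrays and Il1a on 2 of 3. Il24 rose by 4.17 ± 0.26. The summed level of the 3 measured myeloid markers, 1 of them called higher, moved with these genes, and its part was not tested. On the receptor side Il17re was at -2.00 ± 0.22 and Osmr, the oncostatin M receptor, at -1.18 ± 0.16. MAP kinases and the kinases above them had 16 of 27 lower and 4 higher (median -0.66). Map3k21 and Map3k1 were at -3.24 ± 0.24 and -2.80 ± 0.16, with Map3k1 at 8.76, 8.499 and 8.89 on day 7 and 11.72, 11.46 and 11.37 in hypoxic cells. Tyrosine phosphatases had 10 of 21 lower and 2 higher (7 and 6 on the scale of probes detected on all arrays), led by Ptprf (-2.76 ± 0.15).

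In the Wnt pathway 10 of 34 were higher and 13 lower (12 and 10 on the scale of probes detected on all arrays). Notum, a secreted hydrolase that inactivates Wnt proteins, was at least 7.66-fold higher, and Rspo3, which amplifies the Wnt signal, at least 6.06-fold. The receptor Fzd7 read 9.10, 9.01 and 9.36 on day 7 and 11.99, 11.75 and 12.001 in hypoxic cells (-2.75 ± 0.14), and the effector Tcf7l2 was at -1.80 ± 0.21. Semaphorins, plexins and neuropilins had 10 of 20 lower and 3 higher, or 9 and 6 on the scale of probes detected on all arrays. Sema3e was at least 3-fold lower, while Sema7a was at least 3.63-fold higher and neuropilin Nrp1 rose by 1.78 ± 0.19. Among BCL2 family members and caspases 10 of 31 were higher and 11 lower (14 and 12 on that scale). Cflar, an inhibitor of caspase 8, read 8.79, 9.03 and 9.21 on day 7 and 6.46, 6.56 and 6.22 in hypoxic cells (2.60 ± 0.16), and the death activator Bcl2l11, or BIM, read 7.24, 7.06 and 6.77 and 9.85, 9.62 and 9.77 in the same order (-2.72 ± 0.15). Both moved in every array, in opposite directions.

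Surface and calcium-binding families differed from one another. Of 11 S100 proteins 9 were higher and 0 lower (median 1.39), S100a9 most (4.84 ± 0.31, detected on 2 of 3 hypoxic arrays), with S100a16 at 1.68 ± 0.30. Annexins, which also bind calcium and are partners of several S100 proteins, had 0 of 10 higher and 3 lower, or 3 higher and 1 lower on the scale of probes detected on all arrays. Tetraspanins had 9 of 20 higher and 5 lower, with Tspan6 at 2.38 ± 0.13, and connexins and pannexins 3 of 9 higher (33.3%, against 25.9% of all genes) and 0 lower, with Gjb2 at 2.10 ± 0.20. Galectins split, with Lgals1 at 1.97 ± 0.20 and the epithelial Lgals7 at -2.22 ± 0.13. Regulators of G protein signalling included Rgs16 (2.79 ± 0.13) and Rgs4 (3.29 ± 0.19, detected on 1 of 3 hypoxic arrays).

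Several families of transcription factors were lower more often than the 33.7% of all genes. Of 11 Kruppel-like factors 10 were lower and 0 higher (median -1.12). Klf13 read 8.76, 8.46 and 8.71 on day 7 and 10.83, 11.14 and 10.89 in hypoxic cells (-2.31 ± 0.14), Klf7 was at -2.30 ± 0.17 and Klf9, a gene induced by glucocorticoids, at -1.83 ± 0.13. C/EBP, NFI, STAT and IRF factors had 12 of 16 lower and 1 higher (median -0.97), with Cebpa at least 1.91-fold lower and Cebpd at -1.34 ± 0.13. ETS factors had 7 of 12 lower, Ets2 most (-1.88 ± 0.11), and Sox factors 5 of 8, among them Sox4 (-1.40 ± 0.12) and Sox9 (-1.23 ± 0.12). Nuclear receptors had 10 of 21 lower and 2 higher. The retinoic acid receptor Rarb rose by 2.20 ± 0.16. Forkhead factors had 8 of 20 lower (40.0%) and 3 higher, nearer to the share of all genes, and the rises included Foxs1 (3.04 ± 0.19) and Foxm1 (1.80 ± 0.23), a driver of mitotic genes. Zinc finger genes of the Zfp series had 85 of 205 lower (41.5%) and 25 higher, or 60 and 46 on the scale of probes detected on all arrays. Hox factors had 2 of 8 lower and 0 higher, or 1 lower and 2 higher on that scale.

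Circadian clock genes were lower, 12 of 16 with 0 higher (median -0.91). Per1, a repressor in the clock loop that also responds to glucocorticoids, read 6.04, 5.66 and 5.81 on day 7 and 9.35, 9.62 and 9.66 in hypoxic cells (-3.71 ± 0.15), with all day 7 arrays below all hypoxic arrays. The output factor Dbp was at -1.65 ± 0.15 and the activator Rora at -2.27 ± 0.28 (detected on 2 of 3 day 7 arrays). Per1 was already at 7.16 on day 1. No label states the time of day at harvest. Imprinted genes had 10 of 19 lower and 5 higher, with the cell cycle inhibitor Cdkn1c at 6.14, 5.62 and 6.02 on day 7 and 9.33, 9.003 and 8.49 in hypoxic cells (-3.02 ± 0.24) and Ndn at 2.14 ± 0.17. Long non-coding RNA genes with set names had 9 of 16 lower and 3 higher. Neat1, the scaffold of nuclear paraspeckles and a known hypoxia target, was at -2.70 ± 0.15, and Pvt1 and Norad rose by 1.39 and 1.04.

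Long genes were lower more often than short ones. This grouping by genomic span (RefSeq, assembly GRCm38.p6) was chosen after the values of the families had been seen. Genes called at least 2-fold higher had a median span of 14.5 kb and those at least 2-fold lower 30.9 kb, against 21.7 kb for all 10350 genes with a span. Split into 5 groups of equal size, the shortest genes (0.1 to 7.1 kb) were higher in 35.7% and lower in 21.9%, whereas the longest (62.4 to 1997.7 kb) were higher in 14.9% and lower in 46.5%. The 3 groups between them fell in order. Without histone genes, the shares among the shortest were 34.4% and 22.4%. Families follow the same axis in part, since the histone methylation enzymes had a median span of 51.6 kb, while mitochondrial ribosomal and import proteins had 7.8 and 7.2 kb and S100 proteins 3.3 kb. Kruppel-like factors (14.7 kb) and C/EBP, NFI, STAT and IRF factors (14.1 kb) were below the median span and yet lower, and cytosolic ribosomal proteins (3.4 kb) were short and mostly not called.

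The gradient by span held on each array. The median level of the longest genes was 7.40, 7.37 and 7.36 on day 7 arrays and 7.89, 7.78 and 7.81 on hypoxic arrays, and that of the shortest was 8.64, 8.62 and 8.64 on day 7 and 8.37, 8.38 and 8.34 in hypoxic cells. In the 18 alternatives the median difference of the longest genes lay between -0.53 and -0.08 and that of the shortest between -0.02 and 0.30, below 0 for the shortest only on the common-median scale. Span is that of the gene and not of the mRNA. The share of RNA quality in this gradient was not tested, as the labels give no RNA integrity values.

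**Figure D4:**
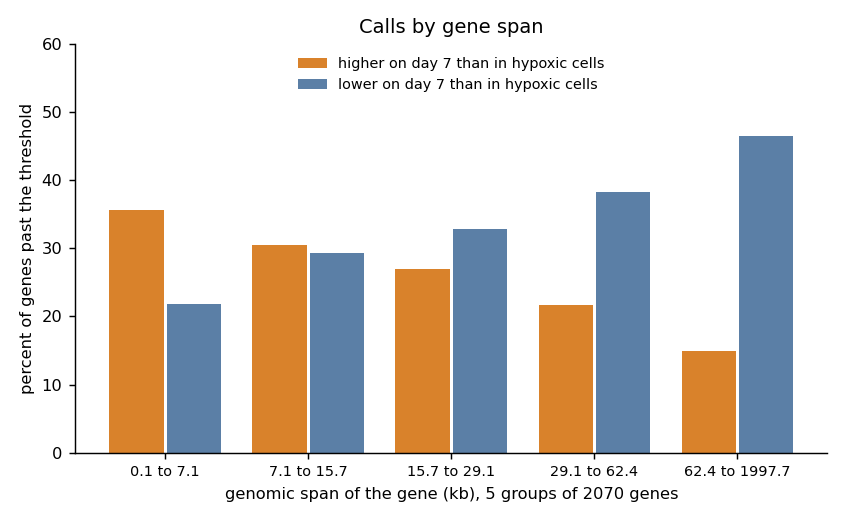
Percent of genes called higher (orange) or lower (blue) on day 7 in 5 groups of 2070 genes by genomic span in kb. Lower genes make up 21.9% of the shortest group and 46.5% of the longest, and higher genes 35.7% and 14.9%.

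Neighbouring genes that moved together were few besides the histones. In all, 23 runs of at least 4 adjacent measured genes changed in the same direction by at least 2-fold, 14 higher and 9 lower. Several were clusters of paralogs, as in the prolactin family (Prl8a9, Prl7b1, Prl7c1, Prl2a1 and Prl2c1, by 1.04 to 4.44), the chemokines (Ccl2, Ccl7 and Ccl11 with 1700071K01Rik, by 1.19 to 5.08) and the stefins (Csta3, Stfa1 and Cstdc5 with Ccdc58, by 1.30 to 5.52). A run of 6 at Tcstv1 and Tcstv3 (by 1.11 to 3.16) holds near-identical copies. Runs of unrelated genes also occurred. Of all genes 13.7% were at least 2-fold higher and 16.0% at least 2-fold lower, so some runs arise without any link between neighbours. Whether there were more runs than that was not tested. Leprotl1, Saraf, Dusp4, Tnks and Ppp1r3b were all lower, by 1.08 to 2.01, as were Atxn2l, Eif3c, Cln3, Apobr and Nupr1, by 1.10 to 1.77. Uck2, Mgst3, Rgs4 and Hsd17b7 were all higher, by 1.06 to 3.29, and so were Commd6, Uchl3, Kctd12 and Acod1, by 1.40 to 3.77. Members of these runs were all past the threshold. Adjacency here is among measured genes in RefSeq order of GRCm38.p6.

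Promoters were compared for the 8370 tested genes with a RefSeq promoter of 250 bases before to 50 bases after the start (GRCm38.p6). The median GC content was 58% in the 1130 promoters of genes at least 2-fold higher and 63.3% in the 1318 of genes at least 2-fold lower, against 60.7% in all. Motifs were searched as exact letters on both strands. TTTGAA, the cell cycle homology region bound in mitotic genes, was in 18.3% of promoters of higher genes, 7.89% of those of lower genes and 11.9% of all. TATAAA, the TATA box, was in 12.9%, 6.30% and 7.81% in the same order, and TTTCGCGC, a site bound by E2F, in 2.04%, 0.152% and 0.741%. CCAAT, bound by NF-Y, was in 45.5%, 35.7% and 39.1%. ACGTG, the core bound by hypoxia-inducible factors, was in 24.6%, 25.4% and 26.1%, so its share was close to that of all promoters in both directions.

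**Figure D5:**
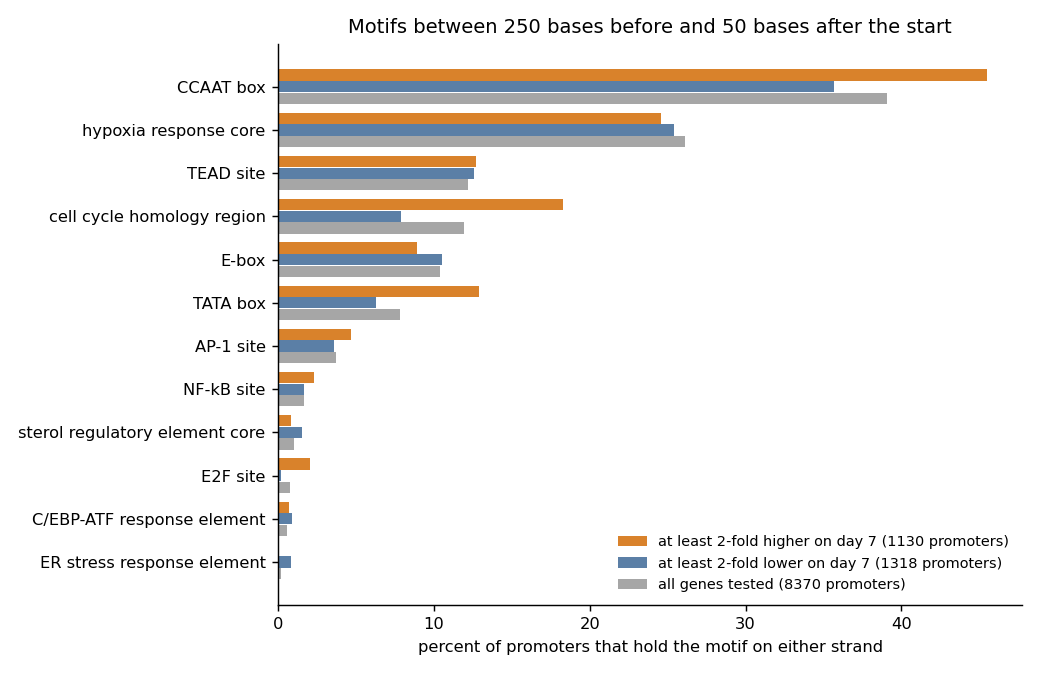
Percent of promoters that hold each motif on either strand, for genes at least 2-fold higher on day 7 (orange), at least 2-fold lower (blue) and all tested (grey). The cell cycle homology region is in 18.3%, 7.89% and 11.9% of these promoters, and the hypoxia response core in 24.6%, 25.4% and 26.1%.

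Other motifs differed little. TGAGTCA, bound by AP-1, was in 4.69% of higher, 3.57% of lower and 3.72% of all promoters, and the NF-kB site (GGG, then 2 bases, then TTTCC) in 2.30%, 1.67% and 1.67%. GGAATG, bound by TEAD factors, was in 12.7%, 12.6% and 12.2%, CACGTG, the E-box, in 8.94%, 10.5% and 10.4%, TGATGNAAT, bound by ATF4 with C/EBP, in 0.708%, 0.910% and 0.550%, and TCACNCCAC, a core bound by SREBP, in 0.796%, 1.52% and 1.00%. ACGTG overlaps CACGTG, and CCAAT is part of the endoplasmic reticulum stress element below. Shares in named pathways varied by motif. TTTGAA was in 15 of 18 promoters of mitotic genes (83.3%) and CCAAT in 14 of the 18 (77.8%), and ACGTG was in 11 of 19 promoters of known HIF targets (57.9%). TGATGNAAT was in 1 of 19 promoters of ATF4 targets (5.26%) and TCACNCCAC in 0 of 14 of sterol synthesis genes.

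The promoters of Car9 and Aurka are printed to show these letters in a gene that fell and in one that rose. Car9, at chr4:43506776-43507075 on the + strand, has the hypoxia core 18 bases before its start, on the reverse strand (capitals). The Aurka promoter, of the mitotic kinase Aurora A (2.89 ± 0.15), lies at chr2:172370521-172370820 on the - strand, with the cell cycle homology region in capitals in the first line and 2 CCAAT boxes in the second. All are RefSeq sequences of GRCm38.p6, printed 5′ to 3′ along the gene's strand.
Car9: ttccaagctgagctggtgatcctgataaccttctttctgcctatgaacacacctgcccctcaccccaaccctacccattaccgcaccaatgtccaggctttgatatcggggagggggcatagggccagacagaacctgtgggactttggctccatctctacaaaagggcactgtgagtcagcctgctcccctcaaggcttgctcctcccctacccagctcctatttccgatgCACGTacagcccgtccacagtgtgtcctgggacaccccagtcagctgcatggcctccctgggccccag
Aurka, cell cycle homology region: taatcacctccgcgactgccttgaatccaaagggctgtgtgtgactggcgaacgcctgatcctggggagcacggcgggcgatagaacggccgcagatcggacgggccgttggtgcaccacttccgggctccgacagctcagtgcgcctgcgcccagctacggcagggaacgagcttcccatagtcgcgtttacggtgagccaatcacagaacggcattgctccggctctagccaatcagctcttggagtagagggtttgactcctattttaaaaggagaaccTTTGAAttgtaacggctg
Aurka, CCAAT boxes: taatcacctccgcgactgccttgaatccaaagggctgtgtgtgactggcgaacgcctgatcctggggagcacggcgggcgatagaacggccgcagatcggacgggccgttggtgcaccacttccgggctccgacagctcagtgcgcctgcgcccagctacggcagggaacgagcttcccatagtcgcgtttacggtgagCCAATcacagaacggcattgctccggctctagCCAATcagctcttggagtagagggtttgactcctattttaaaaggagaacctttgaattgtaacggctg

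Genes with the endoplasmic reticulum stress response element in the promoter were described next. The element reads CCAAT, then 9 bases, then CCACG, and is bound by NF-Y with ATF6, a factor that raises chaperones when unfolded protein accumulates. It was found in 14 promoters of tested genes (0.167% of all), and all 14 genes were lower on day 7 and 0 higher, against 33.7% lower among all genes. Of these, 7 are on the list of chaperones and folding factors of that organelle, where 7 of 16 promoters hold the element (43.8%) and 15 of 18 measured genes were lower. Hspa5, the chaperone BiP, read 8.86, 9.16 and 9.10 on day 7 and 10.93, 10.54 and 10.97 in hypoxic cells (-1.77 ± 0.16, adjusted p = 0.000113). Others on the list were Hsp90b1 (-1.51), Pdia6 (-1.43) and Calr (-0.91), which fold glycoproteins and other secreted proteins.
The other 7 genes with the element are not on that list. Spats2l, which is found in stress granules, read 5.74, 5.99 and 5.37 on day 7 and 9.77, 9.51 and 9.85 in hypoxic cells (-4.01), and was detected on 2 of 3 day 7 arrays. Derl3, of the degradation pathway for misfolded proteins, was at least 2.17-fold lower, as Ero1b was by the bound given above. Adcy3 was at least 1.35-fold lower, and Pan2 was at -1.47 and the glycosylation enzyme Alg12 at -0.65. Hnrnpa3, at -0.53, was near background and turned to 0.07 on the scale of probes detected on all arrays. Under the alternatives tried 10 to 14 of the 14 were lower and 0 higher, and 9 of 9 were lower where detection on all 12 arrays was required.

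The 2 promoters below show the element in a chaperone gene and, for contrast, the ATF4 motif in a gene of the amino acid response. Hspa5, at chr2:34771840-34772139 on the + strand, holds the stress element, in capitals, from 65 bases before the start. Nupr1, a small stress-induced nuclear protein (-1.48 ± 0.19), at chr7:126625421-126625720 on the - strand, holds the reverse complement of TGATGNAAT, in capitals, from 111 bases before the start. Both run 5′ to 3′ along the gene's strand.
Hspa5: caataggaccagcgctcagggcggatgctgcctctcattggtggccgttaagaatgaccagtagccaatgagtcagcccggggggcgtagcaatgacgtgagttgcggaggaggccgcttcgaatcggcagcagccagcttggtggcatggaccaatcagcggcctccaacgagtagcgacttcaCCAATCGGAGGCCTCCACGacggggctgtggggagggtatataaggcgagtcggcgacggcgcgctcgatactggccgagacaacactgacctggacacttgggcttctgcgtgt
Nupr1: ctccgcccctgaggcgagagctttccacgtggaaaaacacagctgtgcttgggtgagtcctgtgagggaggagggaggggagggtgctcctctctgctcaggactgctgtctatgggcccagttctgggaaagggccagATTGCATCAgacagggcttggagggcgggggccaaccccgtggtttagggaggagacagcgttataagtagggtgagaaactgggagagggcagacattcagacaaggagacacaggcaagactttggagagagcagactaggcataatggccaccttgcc

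Probes of the same gene at times disagreed. Of 3872 genes read by more than 1 kept probe, 1336 had all probes called in a single direction and 149 had probes called in opposite directions, 79 of them with both probes detected on all 6 arrays. Mtor, the nutrient-sensing kinase, had a probe designed on its RefSeq transcript at -1.59 ± 0.19 (6.59 to 7.20 on day 7 and 8.30 to 8.67 in hypoxic cells) and a probe designed on a cDNA clone at 2.24 ± 0.15 (9.22 to 9.47 on day 7 and 6.95 to 7.29 in hypoxic cells). Groups were apart on both probes, so the direction of Mtor rests on the probe chosen. Sppl3, an intramembrane protease, had a RefSeq probe at -1.72 ± 0.17 and a clone probe at 1.97 ± 0.20, with 2 dimmer probes at -1.09 and -0.73 that were not detected on day 7. Tnfrsf22, a decoy receptor for TRAIL, had 3 probes between -2.47 and -1.83 and 1 at 1.82 ± 0.20. Sft2d2 likewise had 3 between -2.45 and -2.15 and 1 at 1.07 ± 0.17. The sialyltransferase St6galnac2 had probes at -1.49 ± 0.20 and 1.97 ± 0.17. Acpp, prostatic acid phosphatase, had a probe of each of 2 RefSeq transcripts, at -2.39 ± 0.14 and 0.93 ± 0.26. Whether these are transcript forms or cross-hybridising probes was not tested.

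By class of gene, the calls resembled the whole for protein-coding genes, of which 2640 of 10192 were higher and 3453 lower. Among 103 long non-coding RNA genes 23 were higher and 32 lower, and among 46 transcribed pseudogenes 16 were higher and 5 lower. All 4 measured snoRNA genes were higher. Pseudogene probes can also bind the parent gene's transcript. A further 2538 kept probes carry no single gene name here, and of these 604 were higher and 705 lower.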

How the data were processed

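RNA was amplified to biotin-labelled cRNA and read on Illumina Mouse WG-6 v2.0 arrays, per the labels' protocols. The deposited signal table holds log2 intensity values, which the authors did not normalize between arrays, and detection p-values per probe in columns without names, per the file headers. Each signal column was matched to the 1 detection p-value column that orders its probes exactly. The matched columns do not stand side by side, and the names in the processed table conflict with those in the signal table, so the processed table was not used for results.

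Signals were corrected and normalized over all 12 arrays with neqc (offset 16, limma 3.58.1, R 4.3.3). Of 45281 probes, 34885 had 1 gene symbol, 18 several and 10378 none, and 18561 with a detection p below 0.05 on at least 3 of 12 arrays were kept. Each gene was read by its brightest kept probe, so that genes with several probes depend on that choice. Group means were fitted with lmFit and eBayes and p-values adjusted by the Benjamini-Hochberg method over 10365 genes at 0.05. The number of arrays limits the precision. On simulated data with 200 changed genes among 10365, the calls recovered 4% of changes of 0.5, 58% of 1, 94% of 2 and 100% of 3 on the log2 scale, with 6 false calls. In the real data 6184 genes were called. The adjustment of p-values depends on how many genes change, so these shares and false calls do not carry over to this comparison. The inferred sets of arrays, scaling, background correction, probe filter, probe choice, prior and leaving out each array were tried as alternatives. Promoters, spans and neighbours came from RefSeq (GRCm38.p6).

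Genes named in the text included the 12 largest changes in each direction among called genes detected on all 6 arrays with groups that did not overlap. The others were the 10 largest bounds in each direction, up to 4 called members at each end of a family with some further members, the 6 narrowest steady genes, 6 genes with opposed probes, runs of neighbours and promoter examples. The members and lists were chosen with earlier results of these data known, and the gene spans and stress-element genes were chosen after values were seen. A gene family that was measured is not reported here.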

Additional observations from a re-analysis of the deposited data

How the results depend on the processing

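The counts of genes higher and lower on day 7 stayed within 1.5-fold of those reported under every alternative except set a alone, which gave 1248 higher and 1378 lower from 3 arrays. The 2-fold counts moved further in 3 cases, to 717 higher with the shift to a common median, 704 lower with that median taken over probes detected on all arrays, and 919 lower with quantile normalization and no background correction. Leaving out 1 array at a time gave 2411 to 2609 higher and 3067 to 3334 lower genes. The replicate numbers did not pair the arrays, since deviations of day 7 and hypoxic arrays with the same number correlated at 0.029, -0.004 and 0.059, and the fit with the number as a block called 2621 genes higher and 3379 lower.

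Signs turned with the shift to a common median for Cyp4f16 (-0.028), Ddost (-0.160), Katna1 (-0.101), Klhdc2 (0.064), Poglut2 (-0.229) and Rps29 (-0.032). With the median over probes detected on all arrays they turned for Hnrnpa3 (0.072), Klhdc2 (0.382), Mrps30 (0.009), Nadk (0.138), Polr3d (0.059) and Vamp1 (0.121). Averaging the probes of a gene turned Esr1 (-0.039) and Fbxw2 (-0.078), and set a alone turned Ddost (-0.012). The causes were not tested. Of 537 called genes chosen by the naming rule, 85 lost the call or turned under at least 1 alternative other than a set alone, while 191 did so within set a and 67 within set b. Signals near background limit the dim genes, for which only bounds are given.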
